A study of Homo sapiens with 4 samples.

Results

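The HOX genes of clusters A to D were examined for chromatin accessibility in human cardiac progenitor cells. Of the 38 HOX genes followed, 10 lie in HOXA on chromosome 7, 10 in HOXB on chromosome 17, 9 in HOXC on chromosome 12 and 9 in HOXD on chromosome 2. A peak was assigned to a HOX gene when the authors' deposited table gave it that gene's symbol, or when the nearest protein-coding gene body was that gene and lay within 100 kb. This gave 23 of the 60875 peaks, and all 23 met the distance criterion, 6 of them also carrying a member's symbol. The cells were of WTC11, a human induced pluripotent stem cell line of wild-type genotype, taken on day 6 of differentiation toward cardiac progenitors. ATAC-seq, in which the transposase Tn5 cuts and tags open chromatin, was run on 2 libraries whose cultures went on to high cardiomyocyte purity and 2 whose cultures went on to low purity. All libraries share this line and the labels give all of them the same treatment, differentiation toward cardiac progenitors. The comparison asks which regions of the progenitors differ between the outcomes.

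HOX genes encode homeodomain transcription factors that give cells their position along the head-to-tail axis. In each cluster the genes stand in the order in which they are switched on: paralogue groups 1 to 5, at the 3′ end, are active early and toward the head, and groups 6 to 13, at the 5′ end, later and toward the tail. Retinoic acid induces the 3′ genes, and in mouse embryos Hoxb1 and other 3′ genes mark progenitors of the second heart field that contribute to the atria and outflow tract. HOX proteins bind DNA together with the TALE homeodomain cofactors of the PBX and MEIS families.

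The values are the authors' fold changes between the outcomes, with no value per library, so library depth is unknown and replicate scatter is seen only in the standard error (SE) that comes with each fold change. In the authors' deposited table, peaks marked Up have negative log2 fold changes and peaks marked Down positive ones. The sources used here do not say which outcome is the numerator. Below, negative changes are said to lie on the Up side and positive ones on the Down side, with neither tied to an outcome. A peak was said to change when the authors' adjusted p was under 0.05. In bulk samples, fewer cells with an open site and a less open site in every cell cannot be told apart.

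Peaks were sparse over the HOX genes. By nearest gene, 11 of 38 HOX genes (28.9%) had a peak, against 84.2% of the 20052 protein-coding genes in RefSeq. A gene packed among close neighbours is the nearest gene over a short stretch only, so these shares are not a like measure. The 11 were HOXA3, HOXA13, HOXB1, HOXB2, HOXB3, HOXB6, HOXB9, HOXC12, HOXC13, HOXD8 and HOXD13. HOXB7 and HOXD12 had a peak by the authors' symbol alone, which leaves 25 genes with none by either criterion. A peak overlapped the gene body of 7 HOX genes (18.4%), against 71.5% of the 12218 other protein-coding genes between the shortest and the longest HOX gene (1677 to 45574 bp). HOX genes are short even within that range, with a median length of 3.79 kb against 13.8 kb. A peak lay within 1000 bp of a gene end for 5 HOX genes (13.2%), against 65.2% of those other genes, a count that depends less on gene length. These shares are a description, since neighbouring genes of a cluster are not independent, and a gene with no listed peak is not thereby shown to be closed. Of the clusters, HOXB had peaks over 4 of 10 gene bodies, HOXA over 2 of 10, HOXD over 1 of 9 and HOXC over 0 of 9.

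**Figure D1:**
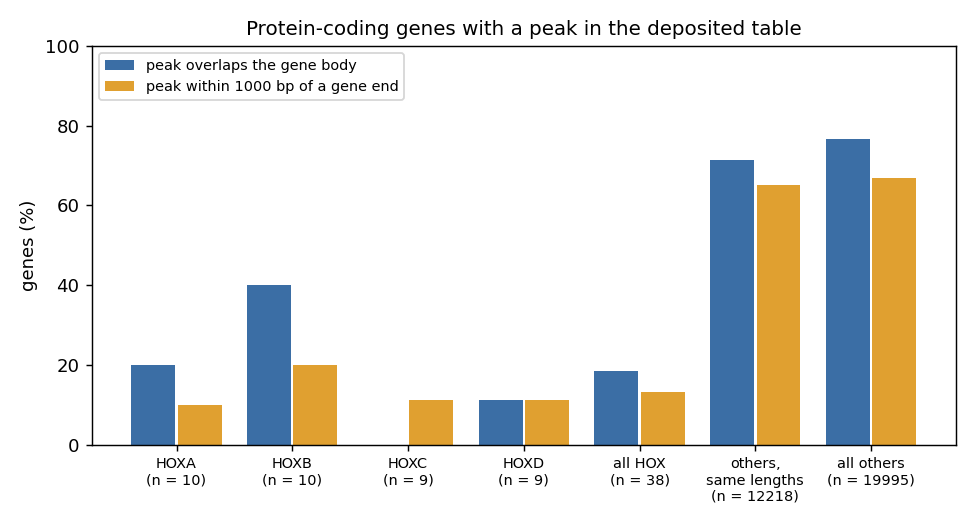
Percentage of protein-coding genes with a peak overlapping the gene body (blue) or within 1000 bp of either gene end (yellow), for the 4 HOX clusters, all 38 HOX genes, 12218 other genes of the same length range and all 19995 other genes; n is the number of genes. The tallest HOX bar is that of HOXB gene bodies, 4 of 10, while the bars of the other genes run from 65.2% to 76.6%.

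Long stretches in the clusters, some running on beyond them, held no peak at all. In HOXC, 167 kb without a peak (chromosome 12, 53961750 to 54128555) take in all of HOXC4, HOXC5, HOXC6, HOXC8, HOXC9, HOXC10 and HOXC11. In HOXD the stretch is 128 kb (chromosome 2, 176141148 to 176269194) and holds HOXD1, HOXD3 and HOXD4, the 3′ genes of that cluster. In HOXA it is 70.9 kb (chromosome 7, 27121200 to 27192090) and holds 7 genes, HOXA4 to HOXA11. HOXB13, which stands apart at the 5′ end of HOXB, lies in a stretch of 73.1 kb (chromosome 17, 48678871 to 48751977). The HOXA stretch lies within its cluster. Those of HOXC, HOXD and HOXB run on past the outermost member, which ends at 54056030, 176190907 and 48728750. Over the whole table the median interval between neighbouring peaks was 22.0 kb, and 4.96% of intervals were at least as long as that in HOXC. Stretches as long as those of HOXD, HOXB and HOXA made up 7.73%, 17.3% and 18.0% of all intervals. Each HOX stretch is the longest of those touching its cluster, whereas the intervals of the table are unselected and counted without regard to length. The percentages thus do not say how unusual a stretch is. Within the span of its members HOXC held 0.853 peaks per 100 kb, HOXA 3.01, HOXD 3.87 and HOXB 4.0, against 2.02 between the first and last peaks of all chromosomes. Per length, then, HOXC alone of the 4 lay below the table as a whole, while by the share of genes with a peak all 4 did (2 of 10 in HOXA, 5 of 10 in HOXB, 2 of 9 in HOXC and 2 of 9 in HOXD). The share of genes can be lowered by the close packing of the clusters.

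**Figure D2:**
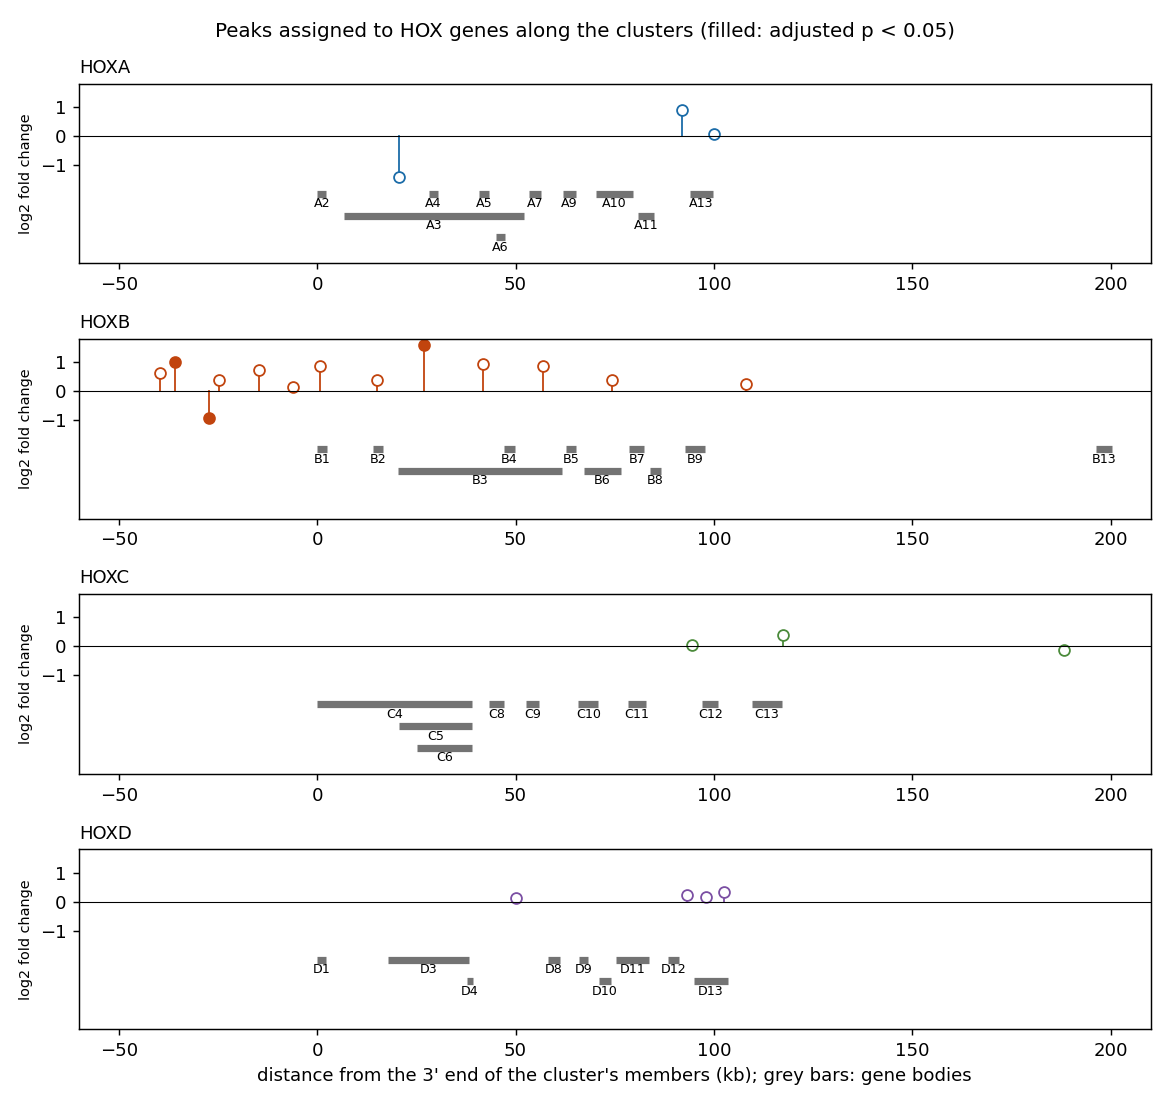
Position of the 23 HOX peaks along each cluster, with 3′ genes at the left, as distance in kb from the 3′ end of the cluster's members (x axis), against the authors' log2 fold change (y axis); grey bars are gene bodies and filled points have an adjusted p under 0.05. The 3 filled points are HOXB peaks, over HOXB3 and beyond HOXB1, and the 3′ parts of HOXC and HOXD are empty.

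Of the HOX start sites that could be placed, few lay in a peak. RefSeq promoter windows (GRCh38.p14, 250 bp before to 50 bp after the start) were matched for 20 of the 38 genes. These are 9 of HOXA, 8 of HOXD, 2 of HOXC (HOXC4 and HOXC5, which share 1 window, counted under both names) and 1 of HOXB, so HOXB, the cluster with the most peaks, is almost absent. HOXC13 was among the genes not matched. Of the matched windows, 2 overlapped a peak, against 61.6% of the 15822 windows of other protein-coding genes. A window was taken as rich in CpG at a GC content of at least 50% and an observed-to-expected CpG ratio of at least 0.6. This held for 16 of the 20 HOX windows (80.0%) and for 63.4% of the other windows. Of those 16, 2 overlapped a peak (12.5%), against 84.0% of the 10028 other promoters that met the same limits. Both belong to paralogue group 13, the most 5′ genes, which in mouse and human pattern the limbs, the tail and the urogenital tract. They are shown because they are the matched HOX starts that overlap a peak, and capitals mark the bases inside the deposited peak, taking its coordinates as counted from 1.
HOXA13 (chr7:27200042-27200341, minus strand): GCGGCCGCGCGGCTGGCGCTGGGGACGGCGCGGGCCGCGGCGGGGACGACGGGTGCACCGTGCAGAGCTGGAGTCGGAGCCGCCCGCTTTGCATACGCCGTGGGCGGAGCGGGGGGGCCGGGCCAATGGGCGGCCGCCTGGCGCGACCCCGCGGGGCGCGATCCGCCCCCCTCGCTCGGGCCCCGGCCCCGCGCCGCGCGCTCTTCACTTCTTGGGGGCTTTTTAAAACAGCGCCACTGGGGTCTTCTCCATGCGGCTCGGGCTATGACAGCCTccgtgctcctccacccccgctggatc
HOXD13 (chr2:176092471-176092770, plus strand): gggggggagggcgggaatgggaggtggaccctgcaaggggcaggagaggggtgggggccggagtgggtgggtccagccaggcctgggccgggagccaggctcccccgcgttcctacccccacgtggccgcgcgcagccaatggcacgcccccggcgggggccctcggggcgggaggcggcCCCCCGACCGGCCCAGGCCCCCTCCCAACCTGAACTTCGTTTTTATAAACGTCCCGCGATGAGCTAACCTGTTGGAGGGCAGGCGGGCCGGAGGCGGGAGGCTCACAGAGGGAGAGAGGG
The HOXA13 peak covers 274 bases of its window, which has a GC content of 76.3% and 44 CpG sites. The HOXD13 peak covers 120 bases at the 3′ end of its window, which has a GC content of 74.0% and 24 CpG sites. Neither window holds, on either strand, the PBX-HOX composite site TGATTNAT, the posterior HOX and CDX site TTTATNG, the GATA site AGATAA, or the retinoic acid response elements DR5 and DR2. Over all 15842 promoter windows TGATTNAT is found in 2.07%, TTTATNG in 8.11%, AGATAA in 7.57%, DR5 in 0.0631% and DR2 in 0.0379%. Among the 20 HOX windows TGATTNAT is found in those of HOXA2 and HOXD11. The site TTTATNG is found in 5, those of HOXA9, HOXA10, HOXD8 and the window that HOXC4 and HOXC5 share.

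Accessibility changed at 3 HOX peaks, all assigned to HOXB genes of paralogue groups 1 to 5. One lies within HOXB3, and the other two lie beyond HOXB1 and point in opposite directions. The 3 make up 13% of the 23 HOX peaks, beside 6.0% of all 60875 peaks. On the Down side there were 2 (3.64% of all peaks are called there), and on the Up side 1 (2.36% of all peaks). With so few called peaks, the HOX share cannot be set apart from that of the table. Other call rules gave 1 HOX peak at an adjusted p under 0.01 (3.11% of all peaks) and 3 at under 0.1 (8.37% of all peaks). The authors' own marking names 1 HOX peak Up and 1 Down, where it takes in 4.86% and 4.98% of all peaks, 9.84% together. Recentring the fold changes on their running median left the same 3 HOX peaks called (6.05% of all peaks). Among the 30438 strongest peaks, those with a mean count no lower than the median, 2 of 11 HOX peaks were called beside 7.69%.

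HOXB3, a group 3 gene active in the hindbrain and pharyngeal region, held the largest change. Its peak in the authors' deposited table (chromosome 17, 48555337 to 48555627) stood at a log2 fold change of 1.60 ± 0.41 (SE; DESeq2, adjusted p = 0.00466), a 3.03-fold difference with a 95% interval of 0.79 to 2.41 log2 units. Its mean normalized count over all libraries was 44.2, just under the median of 47.8 over all peaks. The 2 other peaks within the HOXB3 gene body lay on the same side but did not pass. The middle one (chromosome 17, 48570280 to 48570613) has a value of 0.93 ± 0.40 in the authors' deposited table (SE, DESeq2, adjusted p = 0.176). The last (chromosome 17, 48585369 to 48585715) is listed in the authors' deposited table at 0.87 ± 0.36 (SE, DESeq2, adjusted p = 0.158). All 3 had an unadjusted p under 0.05, as 16.4% of all peaks do. The annotated HOXB3 body is long (48548870 to 48590241) and encloses HOXB4, so a peak in it need not belong to HOXB3 alone. Exons and introns were not analysed here.

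The last HOXB3 peak carries the symbol MIR10A in the authors' deposited table. MIR10A is a microRNA gene between HOXB4 and HOXB5, and its main product, miR-10a-5p, lies 5443 bp from the peak (chr17:48579904-48579926, minus strand, GRCh38.p14). It is shown with its seed, bases 2 to 8, in capitals, beside the 5p products of the miR-196 genes, which lie next to the group 9 genes of HOXA, HOXB and HOXC and share another seed.
hsa-miR-10a-5p: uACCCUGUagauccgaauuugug
hsa-miR-196a-5p: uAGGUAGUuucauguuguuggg
hsa-miR-196b-5p: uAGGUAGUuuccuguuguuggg
No peak carried the symbol of MIR196A1, MIR196A2 or MIR196B. The nearest peak lay 3952 bp from the 5p product of MIR196A1 in HOXB, 30013 bp from that of MIR196A2 in HOXC and 22542 bp from that of MIR196B in HOXA.

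HOXB1, the most 3′ gene of its cluster and in the mouse a marker of the posterior second heart field, had 7 peaks, a number that 9.57% of protein-coding genes reached or passed. Of these, 6 lay outside the gene, from 5899 to 39443 bp beyond its end, on the side away from the rest of the cluster and toward the flanking gene SKAP1. The authors' deposited table puts the one 35551 bp away (chromosome 17, 48492402 to 48492975) on the Down side, at 0.995 ± 0.31 (SE; 95% interval 0.39 to 1.60; DESeq2, adjusted p = 0.0285). The one 27104 bp away (chromosome 17, 48500988 to 48501422) went the other way, and the authors' deposited table gives it at -0.93 ± 0.27 (SE; 95% interval -1.46 to -0.40; DESeq2, adjusted p = 0.0149). These oppositely changed peaks, a 1.99-fold and a 1.90-fold difference, lie 8012 bp apart. Neither reached the absolute change of 1 log2 unit that every marked peak has, so both are unmarked in the authors' deposited table.

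Right beside the Up side peak lay the strongest HOX peak of all. Its mean normalized count was 260.8, higher than that of 95.6% of all peaks, and it is 24332 bp from HOXB1 (chromosome 17, 48503582 to 48504194). By the authors' deposited table its change was 0.37 ± 0.21 (SE, DESeq2, adjusted p = 0.376), with a 95% interval of -0.03 to 0.77 that leaves out a change of 1 log2 unit in either direction. The peak over the HOXB1 gene body (chromosome 17, 48529071 to 48529481) is put by the authors' deposited table at 0.88 ± 0.36 (SE, DESeq2, adjusted p = 0.138). It lies 1530 bp from the HOXB1 start site and does not reach the promoter window. For the remaining 3 HOXB1 peaks the authors' deposited table gives changes of 0.14 to 0.72 and adjusted p-values of 0.248 to 0.894. All 7 HOXB1 peaks had a mean count above the median of the table, from 59.5 to 260.8, whereas 4 of the other 16 HOX peaks did.

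The other HOXB peaks lay on the Down side and did not pass. The peak over HOXB2, a group 2 gene of the hindbrain, carries the symbol of the antisense RNA gene HOXB-AS1 in the authors' deposited table and stood at 0.37 ± 0.40 (SE, DESeq2, adjusted p = 0.770). HOXB6, a group 6 gene of the trunk, had a peak that the authors' deposited table gives at 0.38 ± 0.43 (SE, DESeq2, adjusted p = 0.785). The peak nearest to HOXB9, labelled HOXB7 by the authors, lay 10147 bp from HOXB9 and has 0.23 ± 0.30 in the authors' deposited table (SE, DESeq2, adjusted p = 0.831). In all, 12 of the 13 HOXB peaks were positive, with a median of 0.63 log2 units. The sole negative one is the called Up side peak beyond HOXB1.

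**Figure D3:**
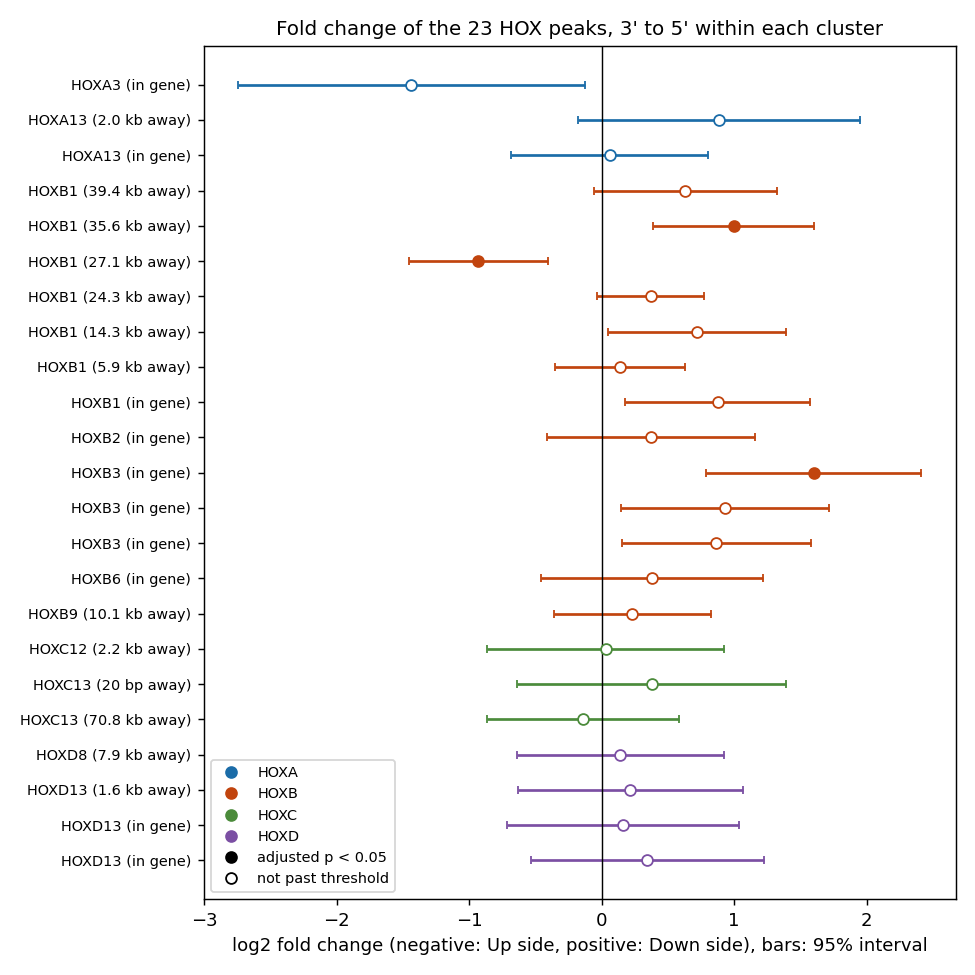
Log2 fold change of each of the 23 HOX peaks in the authors' deposited table (x axis), listed from 3′ to 5′ within each cluster with the nearest HOX gene and the distance to it; bars are 95% intervals from the authors' SE and filled points have an adjusted p under 0.05. Of the HOXB points 12 of 13 lie right of 0, and no HOXC or HOXD interval leaves out 0.

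HOXA had 3 peaks, and none passed. The peak over HOXA3, a group 3 gene needed in the mouse for pharyngeal arch derivatives, carries the symbol HOXA-AS2 (chromosome 7, 27120897 to 27121199). Its change in the authors' deposited table was -1.43 ± 0.67 (SE, DESeq2, adjusted p = 0.234), and it is the HOX peak that the authors' marking names Up. It was the weakest HOX peak, with a mean count of 16.5, and peaks of neighbouring mean count had a running median of -0.60. Set against that median its change was -0.83 (normal p on the recentred value, Benjamini-Hochberg adjusted p = 0.670). HOXA13 had 2 peaks. The one at its start (chromosome 7, 27200068 to 27200510), whose sequence is given above, has 0.06 ± 0.38 in the authors' deposited table (SE, DESeq2, adjusted p = 0.976), with a 95% interval of -0.68 to 0.80. The other lay 2000 bp past its 3′ end, toward HOXA11, and is listed at 0.88 ± 0.54 in the authors' deposited table (SE, DESeq2, adjusted p = 0.456).

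HOXC and HOXD together had 7 peaks, and none passed. The HOXC13 peak (chromosome 12, 53938422 to 53938811) ended 20 bp before the gene and has 0.38 ± 0.52 in the authors' deposited table (SE, DESeq2, adjusted p = 0.842). A further peak 70808 bp away, the most distant of the HOX peaks, has -0.14 ± 0.37 in the authors' deposited table (SE, DESeq2, adjusted p = 0.934). For HOXC12 the authors' deposited table gives 0.03 ± 0.46 (SE, DESeq2, adjusted p = 0.990). In HOXD, the HOXD13 start peak given above (chromosome 2, 176092651 to 176092968) is put by the authors' deposited table at 0.16 ± 0.45 (SE, DESeq2, adjusted p = 0.937). The other 2 HOXD13 peaks, one of them labelled HOXD12 by the authors, have 0.35 ± 0.45 and 0.22 ± 0.43 (SE) in the authors' deposited table, and the peak nearest to HOXD8, labelled HOXD-AS2, has 0.14 ± 0.40 (SE). Their mean counts, 27.1 to 54.7 in HOXC and 33.4 to 44.5 in HOXD, lay under the HOXB median of 72.9, which takes in the HOXB1 peaks. The 6 peaks of HOXB2 to HOXB9 had a median of 43.9, inside both ranges. The 95% interval lay within 1 log2 unit of 0 for 2 of the 3 HOXC peaks and 1 of the 4 HOXD peaks, so for the others a difference of 1 log2 unit is not excluded.

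The ends of the clusters were then set side by side. Groups 1 to 5 (14 genes) had 12 peaks, of which 11 were assigned to HOXB genes and 1 to HOXA3, and 3 of the 12 were called. Of the 11 HOXB peaks, 6 lie beyond HOXB1, outside the span of the cluster, and 2 of these 6 were called. The values below for groups 1 to 5 include them. Groups 6 to 13 (24 genes) had 11 peaks and 0 calls by the authors' DESeq2 test, beside 6.0% of all peaks. An unadjusted p under 0.05 was found for 8 of the 12 peaks of groups 1 to 5 and 0 of the 11 of groups 6 to 13, beside 16.4% of all peaks. The median log2 fold change was 0.68 for groups 1 to 5 and 0.22 for groups 6 to 13, beside 0.001 over all peaks. On both ends most peaks were positive, 10 of 12 and 10 of 11, against 50.1% of all peaks. The difference between the ends was not tested, and it cannot be told apart from a difference between HOXB and the other clusters. Of the peaks assigned to HOXB, the 2 of groups 6 to 13 had a median of 0.31 and the 11 of groups 1 to 5 one of 0.72. Mean counts also differed, with medians of 66.2 for groups 1 to 5 and 37.7 for groups 6 to 13, and the part this plays in the calls was not tested.

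**Figure D4:**
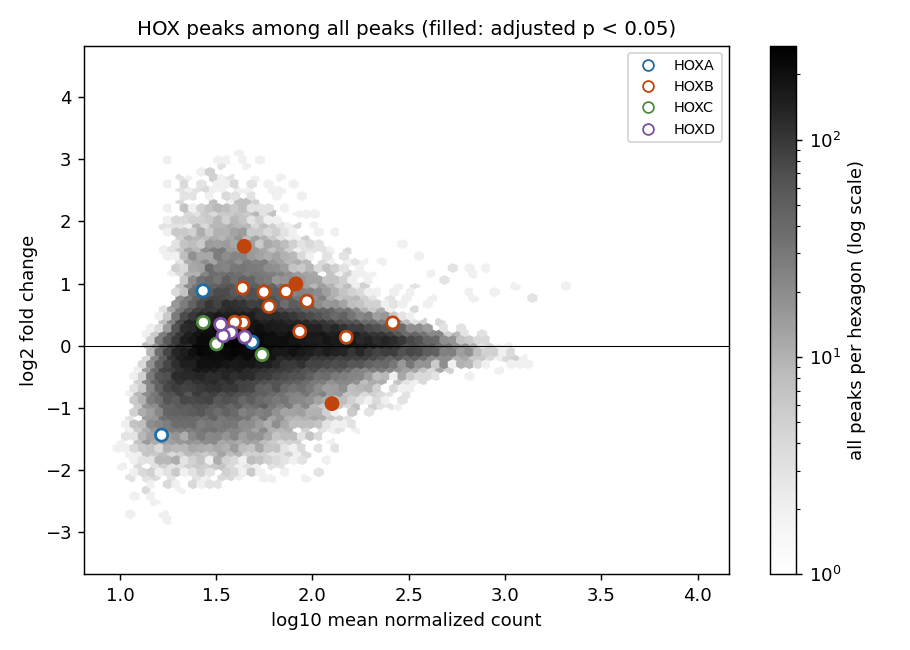
Log10 mean normalized count (x axis) against log2 fold change (y axis) for all 60875 peaks (grey hexagons, shaded by number on a log scale) and the 23 HOX peaks (circles coloured by cluster, filled where the adjusted p is under 0.05). The HOX peaks lie mostly above 0, the HOXB ones reach the highest counts, and the HOXA3 peak sits at the low-count edge where the grey cloud bends below 0.

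Peaks around the clusters were taken for comparison. Among peaks of no HOX gene within 500 kb of each cluster, a window chosen after the HOX values were seen, 56.8% of 44 were positive around HOXB, with a median of 0.06 log2 units. Around HOXA the share was 52.9% of 17, around HOXC 44.2% of 52 and around HOXD 61.5% of 13. SKAP1, an adaptor gene of T cell signalling, borders HOXB at its 3′ end. It had 12 peaks, all among the 44 around HOXB, with 10 of them positive and a median of 0.59 log2 units. Of the 12, 2 changed on the Down side. One of those (chromosome 17, 48472730 to 48473344) lies between SKAP1 and HOXB1, 19057 bp from the called Down side peak of HOXB1, and is given by the authors' deposited table at 1.24 ± 0.30 (SE, DESeq2, adjusted p = 0.00220). The other, inside SKAP1, has 2.33 ± 0.35 in the authors' deposited table (SE, DESeq2, adjusted p = 3.84e-08). Of the 15 genes flanking the clusters that had a peak, LNPK beside HOXD and SMUG1 beside HOXC also had a Down side peak and CALCOCO1 beside HOXC an Up side peak. Together 7.94% of the 63 peaks near the flanking genes were called, beside 6.0% of all peaks.

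Genes that act on or with the HOX clusters were followed in lists, to be read against the shares over all peaks, 6.0% called (2.36% Up side, 3.64% Down side) and 16.4% at an unadjusted p under 0.05. The TALE cofactors, 9 genes with 84 peaks, had 1 Up side peak, near MEIS1, and 3 Down side peaks, near MEIS3, PKNOX1 and PKNOX2. That is 4.76% of their peaks, with a median of 0.01 log2 units. The CDX genes, homeodomain activators of the 5′ HOX genes, had 7 peaks and 0 calls by the authors' DESeq2 test, with 1 at an unadjusted p under 0.05. The Polycomb and trithorax genes, which keep HOX genes silent or active, had 59 peaks and 0 calls by the same test, with 2 at an unadjusted p under 0.05. Of 18 retinoic acid pathway genes, 17 had a peak, and of their 84 peaks 6 changed (7.14%), 4 toward Up and 2 toward Down. The Down side ones were near RARB, a retinoic acid receptor gene that is itself induced by retinoic acid, and DHRS3, an enzyme that lowers retinaldehyde. The authors' deposited table has RARB at 2.67 ± 0.46 (SE, DESeq2, adjusted p = 3.06e-06) and DHRS3 at 1.13 ± 0.23 (SE, DESeq2, adjusted p = 1.57e-04). The Up side ones were near ALDH1A1, RARA, RXRA and, at another peak, RARB. Of these, ALDH1A1 has -1.80 ± 0.43 in the authors' deposited table (SE, DESeq2, adjusted p = 0.00189). Of 8 related homeobox genes outside the clusters, GSX1 and MEOX1 each had 1 Down side peak among 20 peaks of the list.

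Peaks near marker genes of the labelled cell type and of other cell types were followed, again beside the shares over all peaks. These are 2.36% called on the Up side, 3.64% on the Down side and 16.4% at an unadjusted p under 0.05. All 8 cardiac progenitor markers (NKX2-5, ISL1, TBX5, HAND1, HAND2, MEF2C, GATA4 and TNNT2) had a peak, 53 in all, of which 2 changed toward Up and 1 toward Down. Such a peak does not show that the gene is expressed. Nor does it tell cell types apart, since 84.2% of protein-coding genes had a peak by nearest gene. All the endoderm, neural, endothelial, limb and epicardial markers followed had a peak as well, and 3 of 4 paraxial mesoderm markers. Markers of other cell types moved in the same comparison: 10 of 32 peaks near 4 endoderm markers changed on the Up side and 3 of 24 near 3 epicardial markers, all near WT1, on the Down side. Paraxial mesoderm markers had 1 Down side peak of 7, the same MEOX1 peak as in the list of related homeobox genes. Endothelial markers had 2 Down side and 1 Up side of 25, and markers of the posterior lateral plate and limb 1 Up side of 10. Neural markers had 0 called of 18 by the authors' DESeq2 test, with 5 at an unadjusted p under 0.05. The part of these cell types in the HOX values was not tested.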

How the data were processed

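ATAC-seq was done on day 6 cardiac precursor cells with paired-end reads of 42 bp, per the labels' protocols, in 2 libraries of high and 2 of low terminal purity, grouped by their titles. The labels describe biological replicates without saying whether they came from separate differentiations, so their spread, which the p-values reflect, may be partly technical. Per the submitters' processing notes, BWA, MACS2 and DESeq2 were used with GRCh38 (hg38). The sources used here do not give read shifting, duplicate removal or whether libraries were pooled to call peaks, and each could change a count or which peaks are listed. The authors' deposited table holds, per the file headers, each peak's mean normalized count (a signal over all libraries), log2 fold change with its SE, Wald score, and p-value with its adjusted value. No counts per library were analysed here, so the count test that was designed was not run, and calls are the authors' adjusted p under 0.05.

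Distances to protein-coding gene bodies came from RefSeq (GRCh38.p14). Whether the table counts starts from 0 or 1 is not stated. The 95% intervals are the fold change plus and minus its SE times the normal quantile. Named peaks are all called HOX peaks, the smallest p per cluster and side, and the strongest peak of each HOX gene. For other lists they are up to 3 peaks with the smallest adjusted p. Further peaks were named after their values were seen. Recentring subtracted a running median taken across 2001 peaks of adjoining mean count. The members and lists were chosen with earlier results of these data known. Python 3.11.15, pandas 2.3.3 and scipy 1.17.1 were used, tested on simulated data. Other genes of the clusters are not reported here.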

Additional observations from a re-analysis of the deposited data

How the results depend on the processing

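No paired analysis was possible because the values used are a finished comparison without libraries. Leaving out each library, TMM scaling and the replicate block were likewise not run. At an adjusted p under 0.01 the called HOX peaks fell from 1 to 0 on the Up side and from 2 to 1 on the Down side, leaving 1 in groups 1 to 5, that of HOXB3. The authors' marking gave 1 on the Down side. Peaks no weaker than the median mean count (11 HOX peaks) gave 1 on the Down side, since the HOXB3 peak lies under that median. Peaks over a member's gene body (10) held 0 on the Up side, 1 on the Down side and 1 in groups 1 to 5. The 18 peaks with a member's symbol or within 20000 bp gave the same 0, 1 and 1. The 6 peaks with a member's symbol gave 0, 0 and 0. The calls beyond HOXB1 thus rest on assigning peaks over more than 20000 bp. Recentring kept all 3 calls, with the HOXB1 Down side peak near the threshold (adjusted p = 0.0439), and left 19 HOX peaks positive in place of 20. Groups 6 to 13 had 0 calls under each of these alternatives. The median of the HOX peaks ran from 0.22 to 0.38 log2 units. Mean counts were lower outside HOXB, with medians of 27.0 in HOXA, 31.8 in HOXC and 36.1 in HOXD against 72.9 in HOXB. For HOXB2 to HOXB9 alone the median was 43.9. The median SE was 0.54 in HOXA, 0.46 in HOXC and 0.44 in HOXD against 0.35 in HOXB. The part of mean counts in the calls was not tested.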
